A study of Ovis aries with 54 samples.

Results

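The genes described here build and run the motile cilium, the beating hair of the airway lining. The rule names 41 known cilium genes by symbol. It uses no measured value, but the list was drawn up with earlier results of these data known. Of the 41, 40 were found under that symbol among the 30184 genes of the count table. CFAP53 was not analysed here. All 40 passed the filter on low counts in every comparison, and none had 0 counts in any tissue piece.

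Motile cilia cover the multiciliated cells of the airway and clear mucus towards the throat. Their core, the axoneme, is a ring of doublet microtubules around a central pair, bent by dynein motors that sit in outer and inner arms and are steered by radial spokes and a nexin link. In vertebrates the program is switched on by multicilin (MCIDAS) and then by the transcription factors FOXJ1, RFX2 and RFX3, and cilia that lack dynein arms or spokes cause primary ciliary dyskinesia in humans.

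The series measured RNA in lung tissue of sheep used to model chronic obstructive pulmonary disease. In 7 sheep 1 lung lobe received elastase from pig, which digests elastic fibres, together with lipopolysaccharide from the bacterial outer membrane (PE/LPS), and another lobe of the same animal received saline. The control group held 4 further sheep with 1 piece each, of which the labels say only that they were controls. Each of the 18 tissue pieces was sequenced as 3 libraries, which were summed, since they come from 1 animal. The labels state no strain, age, dose or time after exposure, and nothing describes how the control lobes were treated. The sample titles carry a sheep number and the letters LC or RA, whose meaning is not given. In the exposed sheep the PE/LPS pieces were all LC and the saline pieces all RA, and treatment cannot be told apart from code there. Of the control pieces, those of sheep 7 and 9 were RA and those of sheep 10 and 18 were LC. The titles of the PE/LPS pieces of sheep 2, 8 and 11 and of the control piece of sheep 9 carry further characters after the code and are called longer titles below. All titles end in an S number, whose meaning is not given and which entered no fit. Its highest values belong to the PE/LPS pieces of sheep 2 and 8 and the saline piece of sheep 1.

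Piece totals ran from 9653262 counts (PE/LPS, sheep 2) to 41946705 (control, sheep 18). Of the 54 libraries, 1 had 115109 counts (PE/LPS, sheep 11), and the others had 2777537 to 16215732. Levels are given as counts per 1000000 (CPM) after TMM scaling, and differences on the log2 scale. Lung markers were present throughout: 15 alveolar type 2 genes summed to 6039 to 130386 CPM per piece, and the 40 cilium genes to 494 to 1841 CPM. Levels of the cilium genes differed more between animals than between libraries of 1 piece. The SD of log2 CPM was 0.38 at the median gene between libraries of a piece and 0.75 between pieces of a group, and the second was larger for 34 of the 40 genes. TPPP3 had the largest ratio of the spreads (0.13 between libraries, 0.77 between pieces). MCIDAS, with 12 to 73 counts in a piece, had 1.20 and 0.86, so its differences rest on few counts. In bulk tissue fewer ciliated cells and less RNA per ciliated cell cannot be told apart.

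The first comparison set PE/LPS tissue against saline tissue of the same sheep. Of the 40 genes, 39 had a lower estimate in PE/LPS tissue, where 52.8% of all 16944 genes tested did, and the median log2 fold change was -0.61 against -0.03 over all genes. MCIDAS was the exception. Single genes did not pass: after Benjamini-Hochberg adjustment edgeR (quasi-likelihood) called 0 of the 40 and 0% of all genes, and DESeq2 and limma voom called 0 of the 40 as well. At an unadjusted p under 0.05 edgeR gave 13 of the 40, all lower in PE/LPS, against 3.25% of all genes on that side. That count of 13 was 6 without sheep 1 or sheep 2, 5 without sheep 11, 20 without sheep 15, 5 with only library 3 of each piece and 1 without the 3 sheep whose PE/LPS pieces carry longer titles. The ranges of the 7 PE/LPS and 7 saline pieces overlapped for every one of the 40 genes, and groups without overlap were rare at 0.0413% of all genes tested.

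**Figure D1:**
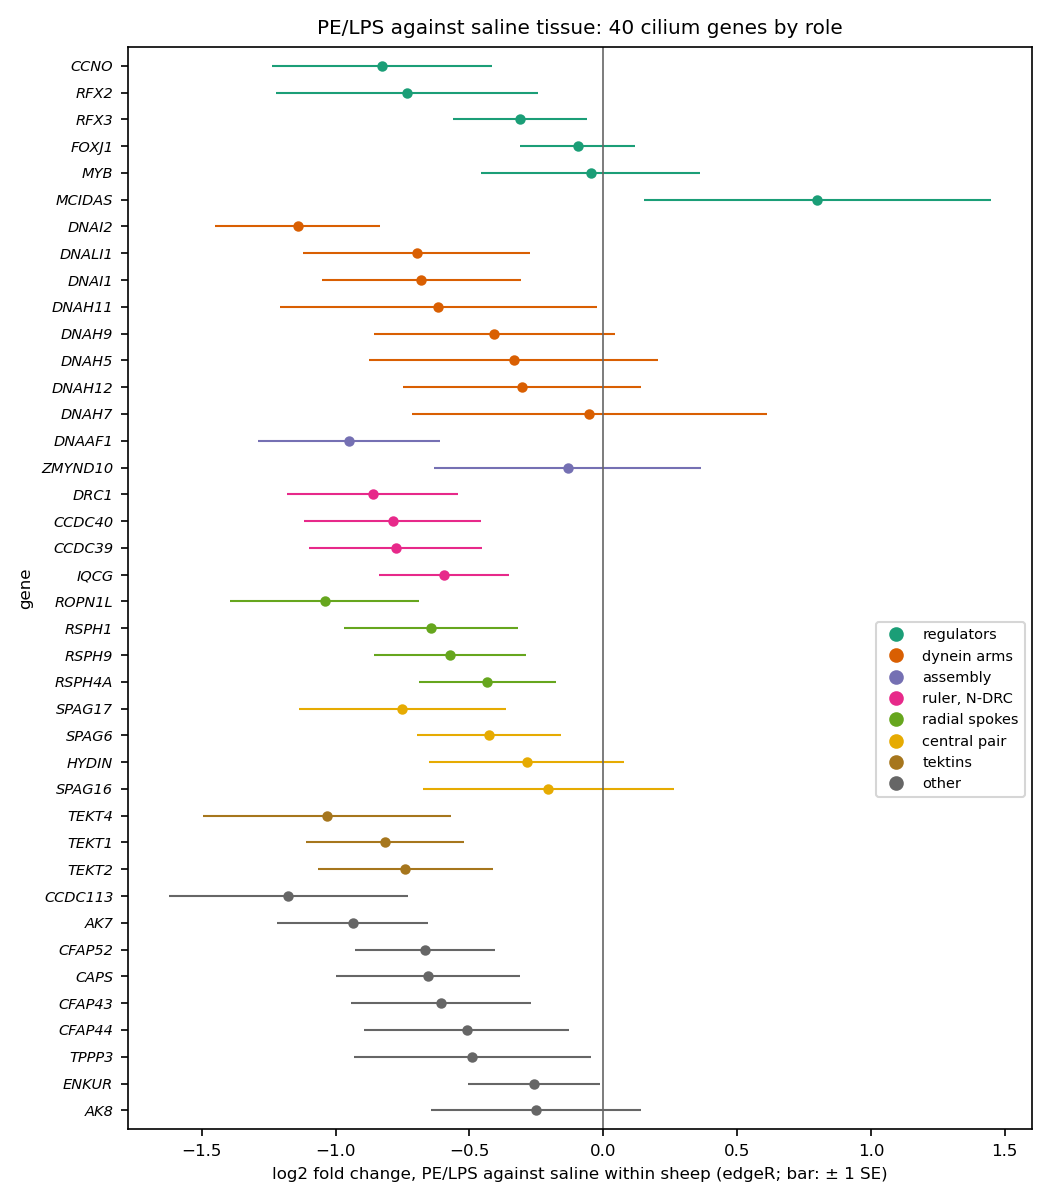
Log2 fold change of PE/LPS against saline tissue within sheep (horizontal axis) for each of the 40 cilium genes (vertical axis), grouped and coloured by role, with bars of 1 SE from edgeR (7 sheep). Points lie left of 0 for 39 genes, with DNAI2 at -1.14 and CCDC113 at -1.18 among the lowest, and MCIDAS lies at 0.80.

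The regulators had the smallest median of the 8 roles, -0.20 over 6 genes, and none had an unadjusted p under 0.05. FOXJ1, the forkhead factor that turns on the genes of motile cilia, ran from 23.5 through a median of 42.4 to 48.2 CPM in saline pieces and from 18.7 through 45.6 to 54.2 CPM in PE/LPS pieces. The control pieces of sheep 7, 9, 10 and 18 stood at 26.4, 14.9, 69.2 and 43.9 CPM. The saline range lay within the PE/LPS range and that within the control range. For FOXJ1 the log2 fold change was -0.09 (SE 0.22, edgeR adjusted p = 0.928), and its sign turned without sheep 1 (0.046). RFX3, a partner of FOXJ1 in this program, ran from 13.2 through 29.3 to 56.2 CPM in PE/LPS and from 27.7 through 44 to 54.7 CPM in saline tissue (-0.31, SE 0.25). Its relative RFX2 had -0.73 (SE 0.49). RFX2 stood at 1.15, 1.36 and 4.28 CPM in the PE/LPS pieces of sheep 2, 8 and 11 and at 4.86 to 11.7 CPM in the others, and without those 3 sheep its fold change was 0.086.

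CCNO, a cyclin-like protein needed to multiply the basal bodies, ran from 1.41 through 4.32 to 9.42 CPM in PE/LPS and from 3.93 through 7.08 to 11.8 CPM in saline tissue. It was lower in PE/LPS in 6 of 7 sheep (log2 fold change -0.83, SE 0.41, edgeR adjusted p = 0.771). MCIDAS, which acts above the other regulators, ran from 0.674 through 1.71 to 4.35 CPM in PE/LPS and from 0.356 through 0.946 to 3.08 CPM in saline tissue. It was higher in PE/LPS in 6 of 7 sheep, and sheep 14 went the other way (log2 fold change 0.80, SE 0.65, edgeR adjusted p = 0.805). MYB, a transcription factor of early multiciliated cells that dividing blood cells express too, ran from 6.43 through 18.2 to 33.3 CPM in PE/LPS and from 7.42 through 12.3 to 33.4 CPM in saline tissue (-0.05, SE 0.41). Its differences within sheep went both ways, from -1.75 in sheep 14 to 1.57 in sheep 8.

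Among the dynein arm genes all 8 estimates were below 0, with a median of -0.51. DNAI2, an intermediate chain that holds the outer arm together, stood at 16.6, 8.66, 9.29, 7.29, 14.2, 11.9 and 13 CPM in the saline pieces of sheep 1, 2, 8, 11, 14, 15 and 16. In the PE/LPS pieces of the same sheep it stood at 6.62, 1.66, 3.60, 1.94, 10.5, 10.7 and 8.00 CPM. DNAI2 was lower in the PE/LPS piece in each of the 7 sheep, and the control pieces lay between 5.89 and 18.0 CPM. Its mean was 6.15 ± 3.83 CPM (SD, n = 7) against 11.6 ± 3.33 CPM, a log2 fold change of -1.14 (SE 0.31, edgeR adjusted p = 0.771), and it had the smallest p of the 40 genes. Only CCDC113 shared this direction in 7 of 7 sheep among the 40, and 0.879% of all genes tested did. The other intermediate chain, DNAI1, ran from 1.28 through 3.58 to 8.03 CPM in PE/LPS and from 3.53 through 5.14 to 9.21 CPM in saline tissue (-0.68, SE 0.37). DNALI1, a light intermediate chain of inner arms, had -0.70 (SE 0.42).

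The 5 heavy chains, the motor subunits themselves, had a smaller median estimate than the other 35 genes (-0.33 against -0.66) and larger errors. That order of the medians rested on sheep 8. Without sheep 8 the medians were -0.73 for the heavy chains and -0.55 for the others. Without sheep 2, 8 and 11 they were -0.83 and -0.40. DNAH5, a heavy chain of the outer arm, stood at 65.2, 21.3, 24.7, 84.3, 90.6, 36.5 and 23.7 CPM in saline pieces of sheep 1, 2, 8, 11, 14, 15 and 16 and at 13.6, 24.8, 92.8, 32.1, 16.5, 40.2 and 62.5 CPM in their PE/LPS pieces. It was more than 1 log2 unit lower in PE/LPS in sheep 1, 11 and 14, more than 1 unit higher in sheep 8 and 16, and within 0.22 in sheep 2 and 15. Its log2 fold change was -0.33 (SE 0.54), and the sign turned without sheep 1 (0.018) or sheep 14 (0.045). DNAH9, also of the outer arm, ran from 6.41 through 20.4 to 71.6 CPM in PE/LPS and from 11.0 through 27.8 to 60.3 CPM in saline tissue (-0.41, SE 0.45). DNAH11, another outer arm chain, had -0.62 (SE 0.59), and DNAH7 and DNAH12, heavy chains of inner arms, had -0.05 (SE 0.66) and -0.30 (SE 0.44).

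**Figure D2:**
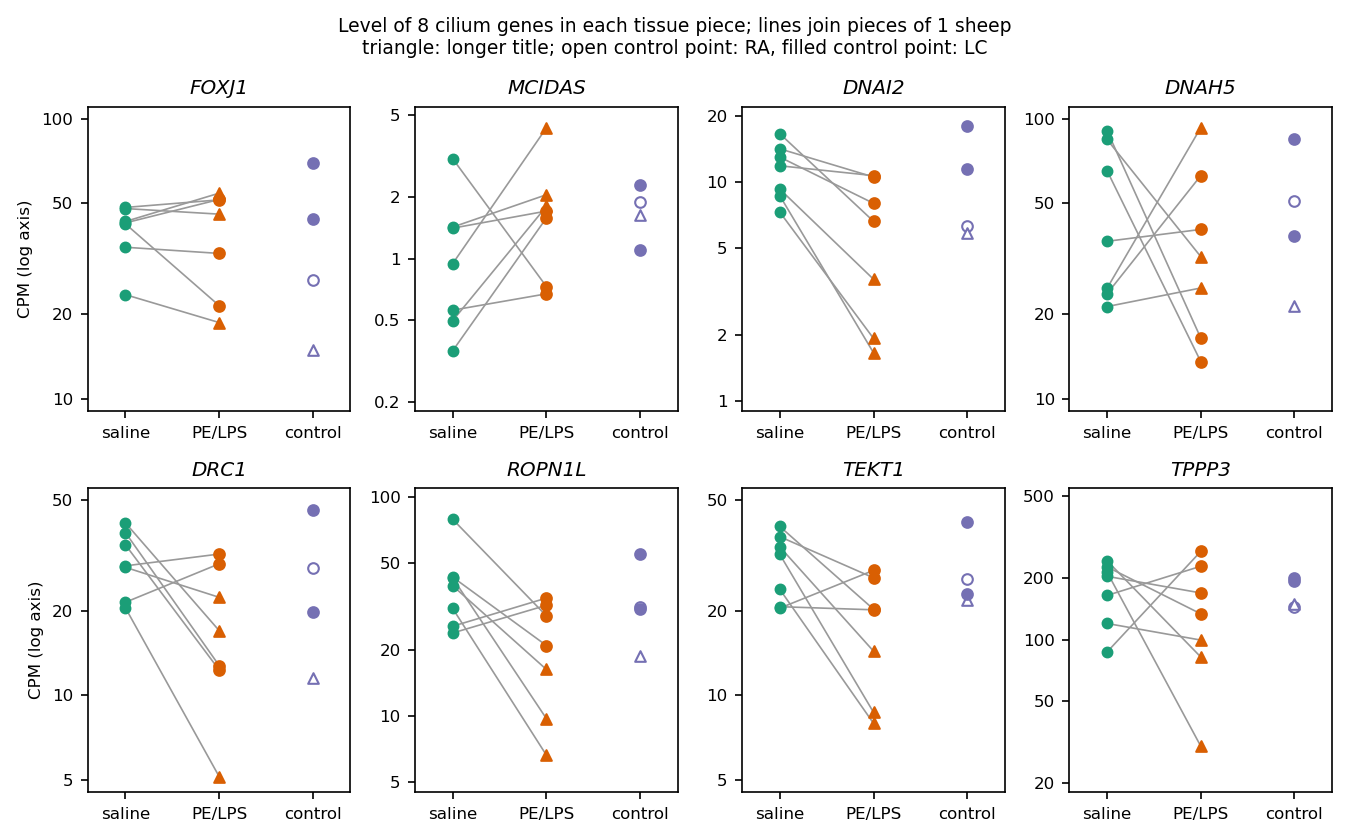
Level in CPM (log axis) of 8 cilium genes in the saline, PE/LPS and control pieces, 1 point per piece, with lines joining pieces of 1 sheep, triangles for longer titles and open (RA) or filled (LC) control points. Lines of DNAI2 run down in 7 of 7 sheep, from 7.29 to 16.6 CPM in saline to 1.66 to 10.7 CPM in PE/LPS pieces, whereas those of DNAH5 cross.

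The assembly factors load dynein arms in the cytoplasm before they enter the cilium. DNAAF1 ran from 1.15 through 4.77 to 8.85 CPM in PE/LPS and from 3.44 through 8.18 to 16.4 CPM in saline tissue, and was lower in 6 of 7 sheep (log2 fold change -0.95, SE 0.34). ZMYND10, with 5 to 125 counts in a piece, ran from 0.640 to 2.16 CPM in PE/LPS and from 0.569 to 3.92 CPM in saline tissue, with a median of 1.35 CPM in each (-0.13, SE 0.50), and the sign turned in several alternative fits.

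The ruler and the nexin-dynein regulatory complex set the repeat of the axoneme and link its doublets. All 4 of these genes had an unadjusted p under 0.05 in edgeR, with a median log2 fold change of -0.78. CCDC39, which forms the ruler together with CCDC40, ran from 23.3 through 39.8 to 68.7 CPM in PE/LPS and from 38.4 through 77.2 to 118 CPM in saline tissue (-0.78, SE 0.32). DRC1, a scaffold of the nexin link, ran from 5.12 through 17 to 32 CPM in PE/LPS and from 20.5 through 29 to 41.3 CPM in saline tissue (-0.86, SE 0.32). Each was lower in PE/LPS in 5 of 7 sheep, with CCDC39 higher in sheep 8 and 15 and DRC1 higher in sheep 15 and 16. CCDC40 had -0.79 (SE 0.33) and IQCG, another subunit of the link, -0.60 (SE 0.24).

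Radial spokes carry signals from the central pair to the dynein arms, and the median of the 4 spoke genes was -0.61. RSPH1, of the spoke head, ran from 16.0 through 50.5 to 103 CPM in PE/LPS and from 51.5 through 83.6 to 126 CPM in saline tissue (-0.64, SE 0.32). RSPH4A, also of the head, ran from 16.6 through 30.3 to 47.8 CPM and from 28.7 through 36 to 66.2 CPM (-0.43, SE 0.26). RSPH9, another head protein, had -0.57 (SE 0.28). ROPN1L, a protein of the spoke stalk, stood at 79.2, 31.1, 42.8, 39.4, 24, 25.8 and 43.2 CPM in the saline pieces and at 28.7, 6.66, 9.77, 16.4, 32.1, 34.6 and 21 CPM in the PE/LPS pieces, in the same order of sheep. It was lower by 1.03 to 2.21 log2 units in sheep 1, 2, 8, 11 and 16 and higher by about 0.4 in sheep 14 and 15 (-1.04, SE 0.35, edgeR adjusted p = 0.771).

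The central pair genes had a median of -0.36, and none of the 4 had an unadjusted p under 0.05. SPAG6, a structural protein of the central pair, ran from 9.73 through 14.7 to 31.5 CPM in PE/LPS and from 16.4 through 19 to 36.8 CPM in saline tissue (-0.43, SE 0.27). HYDIN, a very large protein of a central pair projection, ran from 9.45 through 19.7 to 27.5 CPM in PE/LPS tissue. Its log2 fold change was -0.29 (SE 0.36), with a sign that turned without sheep 14 (0.047), whose saline piece stood at 66.1 CPM where the other 6 lay between 9.01 and 27.1 CPM. SPAG17 had -0.75 (SE 0.39) and SPAG16 -0.21 (SE 0.47).

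The tektins, filament proteins inside the doublet microtubules, had the lowest median of the 8 roles, -0.82, and all 3 had an unadjusted p under 0.05 in edgeR. TEKT1 stood at 40.1, 23.9, 31.9, 33.9, 20.7, 20.5 and 36.9 CPM in saline pieces of sheep 1, 2, 8, 11, 14, 15 and 16 and at 20.3, 7.94, 8.69, 14.4, 20.2, 27.9 and 26.3 CPM in their PE/LPS pieces. It was higher in PE/LPS in sheep 15, differed by -0.04 on the log2 scale in sheep 14, and was lower by 0.49 to 1.87 in the others (log2 fold change -0.82, SE 0.29, edgeR adjusted p = 0.771). TEKT2 ran from 2.56 through 12.1 to 25.1 CPM in PE/LPS and from 12.8 through 19.7 to 25.6 CPM in saline tissue (-0.74, SE 0.33). TEKT4 ran from 0.384 through 6.63 to 10.4 CPM and from 6.10 through 9.90 to 13.6 CPM (-1.03, SE 0.46), and its lowest value, that of the PE/LPS piece of sheep 2, rests on 3 counts.

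The remaining 9 genes had a median of -0.61 and were all below 0. CCDC113, a protein of the ciliary axoneme and its base, ran from 0.512 through 1.07 to 1.90 CPM in PE/LPS and from 1.05 through 2.39 to 4.56 CPM in saline tissue (-1.18, SE 0.45). AK7, an adenylate kinase that serves energy exchange in the axoneme, ran from 10.1 through 26.1 to 56.0 CPM in PE/LPS and from 35.6 through 48.3 to 89.8 CPM in saline tissue (-0.94, SE 0.28). TPPP3, a tubulin-binding protein abundant in ciliated cells, ran from 30.3 through 134 to 270 CPM in PE/LPS and from 87.1 through 204 to 243 CPM in saline tissue (-0.49, SE 0.44), and its fold change was 0.25 without the sheep whose PE/LPS pieces carry longer titles. CAPS, the calcium-binding protein calcyphosine, ran from 15.5 through 42.5 to 82.8 CPM and from 38.2 through 59.5 to 133 CPM (-0.66, SE 0.34). The adenylate kinase AK8 and ENKUR, a protein inside the doublets, had -0.25 (SE 0.39) and -0.26 (SE 0.25).

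The direction was not shared by all animals. The PE/LPS piece was below the saline piece for 38 of the 40 genes in sheep 1, 32 in sheep 2, 23 in sheep 8, 38 in sheep 11, 29 in sheep 14, 7 in sheep 15 and 20 in sheep 16. The median difference of the 40 genes was -1.19, -1.0, -0.25, -1.11, -0.54, 0.33 and -0.02 on the log2 scale in the same order, while that of all genes lay between -0.11 and 0.07 in each sheep. In sheep 15 the order was therefore the opposite for 33 genes, and in sheep 16 the genes were split evenly. Gene by gene, 2 were lower in PE/LPS in 7 sheep, 7 in 6 sheep, 15 in 5, 10 in 4, 5 in 3 and 1 in 1 sheep. Leaving out each sheep in turn kept 34 to 39 of the 40 genes below 0, with medians from -0.51 (without sheep 2) to -0.79 (without sheep 15). Without sheep 2, 8 and 11 the median was -0.44 and 36 genes were below 0.

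**Figure D3:**
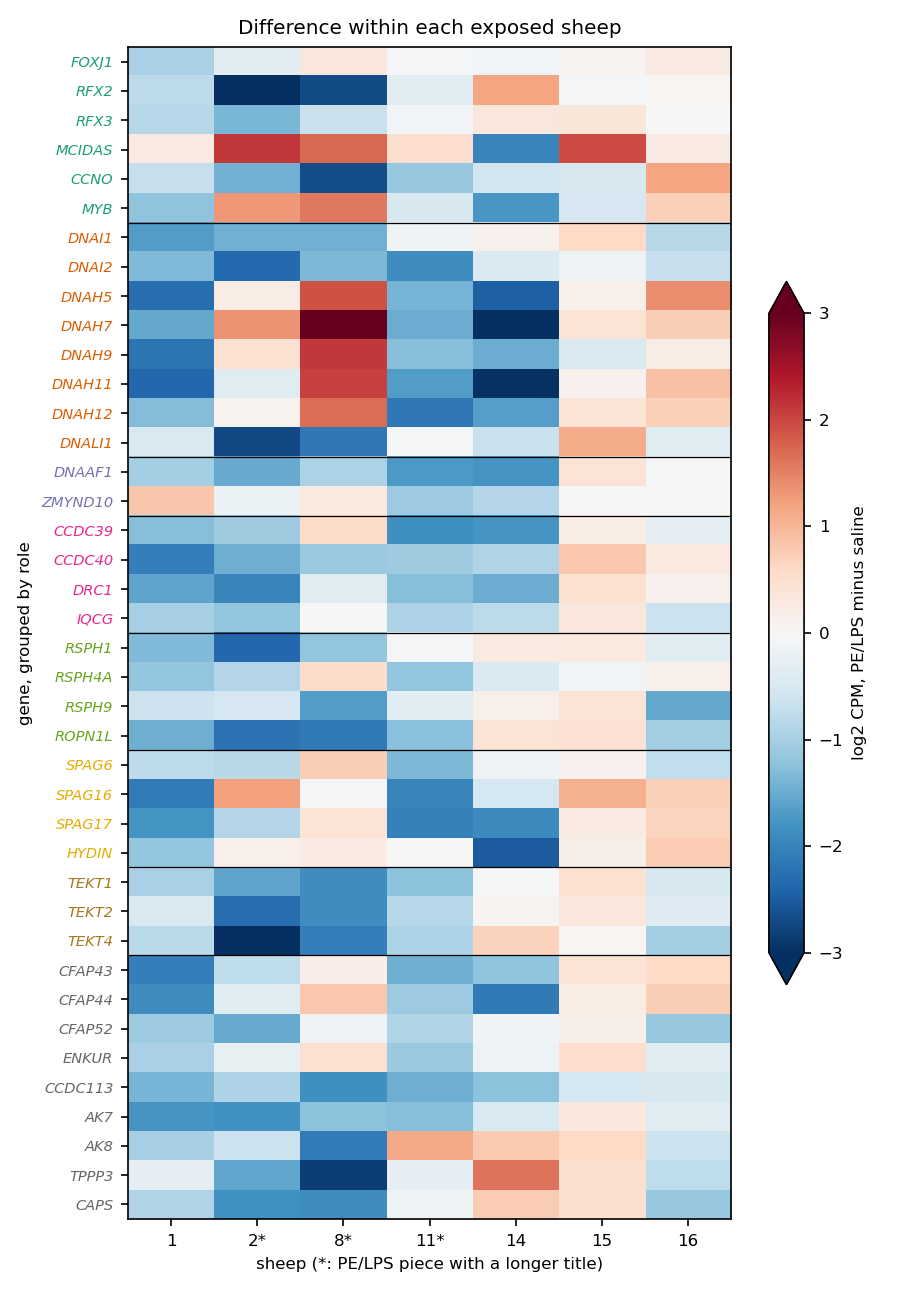
Difference in log2 CPM, PE/LPS minus saline piece (colour, cut at 3 in each direction), for the 40 genes (rows, grouped and coloured by role) in each of the 7 exposed sheep (columns, an asterisk marks a PE/LPS piece with a longer title). Sheep 1 and 11 are blue (lower in PE/LPS) for 38 genes each and sheep 15 is red for 33, while heavy chains and tektins take opposite colours in sheep 8.

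Other parts of the cilium were counted from wider lists, and the axonemal list also holds AGR3, an endoplasmic reticulum protein of ciliated airway cells. Of 116 further axonemal genes tested, 93 were below 0 with a median of -0.42, and 18 had an unadjusted p under 0.05 on the lower side and 1 on the higher side. The smallest p among them were those of CFAP45, a protein inside the doublets (-1.19, SE 0.40), CCDC146 (-0.92, SE 0.32) and the assembly factor DNAAF4 (-0.69, SE 0.24). Intraflagellar transport and BBSome genes, which serve nearly every ciliated cell of the body and not only motile cilia, were below 0 in 26 of 40 with a median of -0.09. Of 14 further regulators of multiciliated cells 8 were below 0, with a median of -0.17. No gene of these lists was called by edgeR.

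Marker lists of other cells were read in the same contrast, and edgeR called no gene of any of them. Of 16 airway secretory and mucous genes tested, 12 were below 0 in PE/LPS with a median of -0.68, and the list summed to 2230 to 15628 CPM in PE/LPS and 3419 to 17038 CPM in saline pieces, with KLK11 at 0 in all 18. Of 13 alveolar type 2 genes 11 were below 0 (median -0.59), and of 8 airway basal cell genes 5 (median -0.27). Of 11 matrix fibroblast genes 8 were below 0 (median -0.15), 4 of them at an unadjusted p under 0.05. Alveolar type 1 and endothelial genes split 5 below to 7 above 0 and 5 to 6, with medians of 0.11 and 0.12. Of 9 macrophage genes 7 were above 0 (median 0.27). Neutrophil, lymphocyte and airway cartilage and smooth muscle lists had medians of 0.00, -0.12 and -0.03. Immediate early and heat shock genes, which respond to stress and to handling of tissue, were above 0 in 15 of 21 with a median of 0.42. Of these 4 had an unadjusted p under 0.05 on the higher side, and DESeq2 called 2, HSPA6 (edgeR log2 fold change 1.57, SE 0.40) and DNAJB1 (0.94, SE 0.24). DESeq2 also called 1 secretory and mucous gene and 1 matrix fibroblast gene lower, and 1 neutrophil gene higher. It called higher the 1 erythrocyte gene tested as well (1.88, SE 0.41). Over all 16944 genes DESeq2 called 47. At an unadjusted p under 0.05 edgeR gave 4 secretory and mucous genes, all lower. The part of these cells, or of stress genes, in the difference of the cilium genes was not tested.

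PE/LPS tissue was next compared with the control sheep. Of the 40 genes, 32 were below 0 where 47.9% of 18340 genes tested were, with a median log2 fold change of -0.27 (all genes 0.02), and edgeR called 0 of the 40 and 0% of all genes. An unadjusted p under 0.05 was reached by 2 of the 40, RSPH9 and CCDC113, both lower, against 0.573% of all genes on that side, and the count was 0 to 3 with 1 sheep left out. RSPH9 stood at 44.9, 31.9, 18.2, 28.9, 45, 45 and 21.3 CPM in the PE/LPS pieces and at 48.4, 56.1, 77.2 and 32.2 CPM in the control pieces of sheep 7, 9, 10 and 18 (log2 fold change -0.67, SE 0.31). All but the lowest control piece lay above the PE/LPS range. The direction rested on 1 animal: without the control piece of sheep 10 the median was 0.03 and 19 genes were below 0. Without sheep 9 it was -0.51, and against the LC control pieces of sheep 10 and 18 alone it was -0.62 with 39 genes below 0. SPAG16 had the smallest p on the higher side (0.54, SE 0.52), and was at -0.038 against the LC control pieces.

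Saline tissue had 31 of the 40 genes above the control sheep, where 51.5% of 18289 genes were above, with a median of 0.22 (all genes 0.01). edgeR called 0 of the 40 and 0% of all genes, and 0 of the 40 had an unadjusted p under 0.05 where 1.66% of all genes did on the higher side (4 of the 40 without sheep 10). DESeq2 and voom called 0 of the 40 too. TEKT2 had the smallest p, at 18.9 ± 5.03 CPM (SD, n = 7) in saline and 14.0 ± 2.46 CPM (n = 4) in control pieces (0.42, SE 0.25). The median was 0.03 without sheep 9, 0.59 without sheep 10, 0.12 without sheep 14, 0.13 without sheep 1 and 0.66 against the RA control pieces of sheep 7 and 9 alone. Both comparisons with control share the same 4 pieces.

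The letter codes were compared among the control sheep, which all carry the same treatment label. Each control sheep gave 1 piece, so the code cannot be told apart from the animal there. Of the RA pieces, that of sheep 9 also has a longer title. Of the 40 genes 38 were higher in the LC than in the RA pieces, where 51.3% of 18063 genes were, with a median log2 fold change of 0.78 (all genes 0.02). edgeR called 0 of the 40 and 0% of all genes. At an unadjusted p under 0.05 it gave 5 of the 40 on the higher side (FOXJ1, RFX3, DNAI2, RSPH4A and AK7), against 1.65% of all genes. That count was 0 without sheep 10, 1 without sheep 9, 16 without sheep 7 and 12 without sheep 18. FOXJ1 stood at 69.2 and 43.9 CPM in the LC pieces of sheep 10 and 18 and at 26.4 and 14.9 CPM in the RA pieces of sheep 7 and 9, without overlap of the codes (1.46, SE 0.45, edgeR adjusted p = 0.987). With 2 pieces a code, 32% of all 18063 genes tested had codes that did not overlap, 2999 with LC higher and 2790 with LC lower. Of the 40 cilium genes, the codes did not overlap for 14 with LC higher and for 1 with LC lower. AK7 stood at 69.8 and 44 against 32.6 and 13.5 CPM. DNALI1 had the smallest p on the lower side, at 7.72 and 6.27 against 9.87 and 9.46 CPM (-0.47, SE 0.46).

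Those 4 animals were unequal. The control piece of sheep 10 was the highest of the group for 32 of the 40 genes and the highest of all 18 pieces for 12. That of sheep 9, with a longer title, was the lowest of its group for 29. Without sheep 10 the LC against RA median was 0.29 with 23 genes higher, without sheep 9 it was 0.52, and without sheep 7 or 18 it was 1.16 and 1.17. Airway secretory genes went the same way, with 16 of 16 higher in LC and a median of 0.97, and their sum was 16347 CPM in sheep 10, 3393 in sheep 18, 3927 in sheep 7 and 8303 in sheep 9. Their part in the difference was not tested.

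The difference of the differences was tested with limma voom and the sheep as a random block: PE/LPS minus saline in exposed sheep against LC minus RA in control sheep. The second of these differences is between separate animals, so it does not measure the code alone. Of the 40 genes 38 were below 0, where 52.3% of 20719 genes were, with a median of -1.17 on the log2 scale (all genes -0.05). limma called 0 of the 40 and 0% of all genes. An unadjusted p under 0.05 was reached by 11 of the 40, all below 0, against 2.85% of all genes on that side. That count was 2 without sheep 9 or sheep 10 and 20 without sheep 18. AK7 had the smallest p (-2.20, SE 0.66, limma adjusted p = 0.729), followed by DNAI2 (-2.11, SE 0.72). MCIDAS was above 0 (0.79, SE 1.00) and DNALI1 at 0.01 (SE 0.71). Without the control piece of sheep 10 the median was -0.84, without sheep 9 -0.91, without sheep 7 -1.50 and without sheep 18 -1.66, with 35 to 39 genes below 0.

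**Figure D4:**
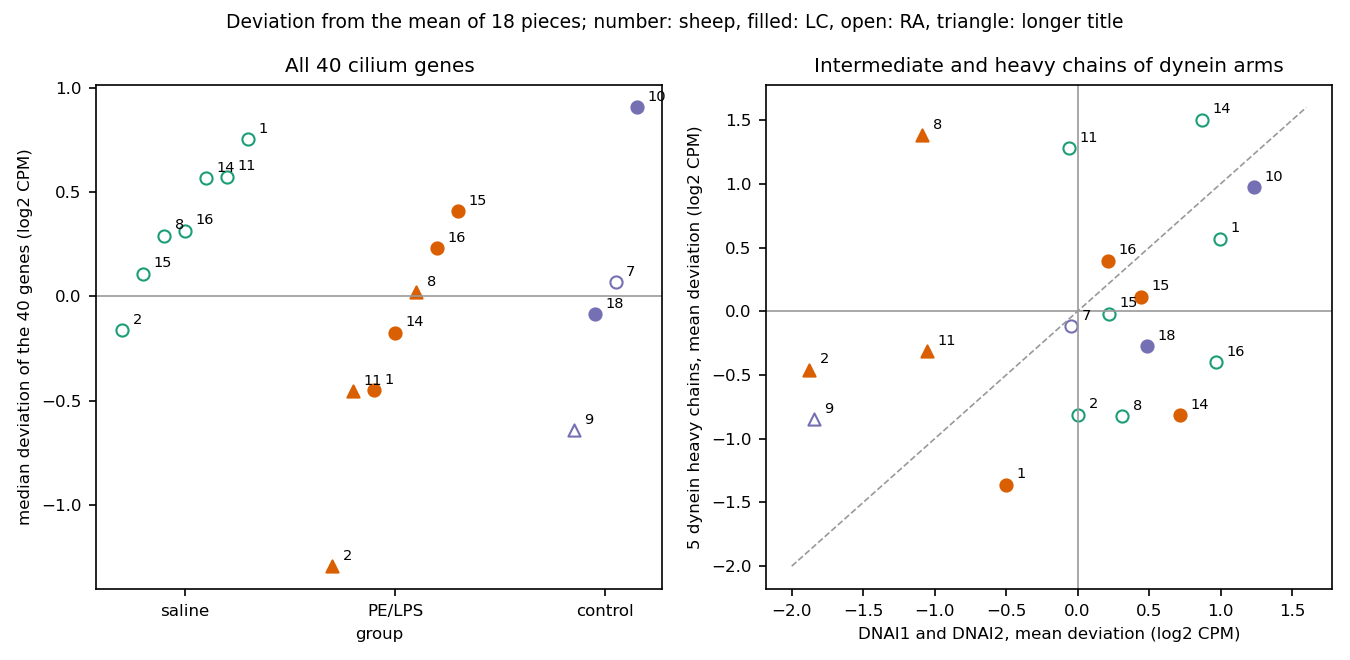
Left, median over the 40 genes of the deviation in log2 CPM from the mean of 18 pieces, for each piece by group (points spread sideways by rank). Right, mean deviation of 5 dynein heavy chains (vertical) against that of DNAI1 and DNAI2 (horizontal), with a dashed line of equality; numbers are sheep, filled points LC, open points RA and triangles longer titles. On the left PE/LPS sheep 2 lies lowest at -1.30 and control sheep 10 highest at 0.91, and on the right the 4 triangles lie above the line.

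The PE/LPS piece of sheep 2 was the lowest of all 18 pieces for 22 of the 40 genes. Within the PE/LPS group the 3 pieces with longer titles were compared with the 4 with plain titles, a split that holds treatment and code constant but is also a split by animal and so cannot be told apart from the sheep. Many genes of all kinds differed: 1561 of 17549 genes tested were lower (8.9%) and 905 higher (5.16%) by edgeR at an adjusted p of 0.05. Of the 40 cilium genes edgeR called 8 lower and 1 higher, and 28 had a negative estimate, with a median of -0.49 (all genes 0.01). The piece totals were 9653262, 21224140 and 16624822 counts with longer titles, below all 4 plain-title pieces (22471776 to 37777824). Alveolar type 1 and type 2 genes were lower too (medians -0.83 and -0.76, with 4 of 12 and 3 of 13 called lower). The part of depth or of other cells in these differences was not tested.

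DNAI2 stood at 1.66, 3.60 and 1.94 CPM in the PE/LPS pieces of sheep 2, 8 and 11 and at 6.62, 10.5, 10.7 and 8.00 CPM in those of sheep 1, 14, 15 and 16 (log2 fold change -1.86, SE 0.44, edgeR adjusted p = 0.0161). The title groups did not overlap for DNAI2, as for 26.8% of all genes tested. In the saline pieces, all with plain titles, the same 3 sheep also had the lowest values, 8.66, 9.29 and 7.29 against 11.9 to 16.6 CPM. TPPP3 stood at 82.4, 30.3 and 99.7 CPM against 169, 270, 228 and 134 CPM (-1.48, SE 0.41, edgeR adjusted p = 0.0303). In the saline pieces TPPP3 showed no such split, at 243, 214 and 120 CPM in sheep 2, 8 and 11 and 87.1 to 227 CPM in the others. The other genes called lower were RFX2 (-1.95), CCNO (-1.74), ROPN1L (-1.39), CAPS (-1.24), AK7 (-1.23) and TEKT1 (-1.18), with edgeR adjusted p from 0.0208 to 0.0396. MYB was the 1 called higher, at 18.4, 33.3 and 24 CPM against 7.42, 6.43, 8.6 and 18.2 CPM (1.33, SE 0.39, edgeR adjusted p = 0.0372). These calls rest on few animals: the count of 9 was 0 without sheep 14 or 15, 1 without sheep 2 or 8, and 5 without sheep 16.

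Among the dynein heavy chains most estimates in this split had the other sign, a pattern singled out after the values were seen. Of the 5 heavy chains 4 were higher with longer titles, with a median of 0.76, whereas 27 of the other 35 genes were lower, with a median of -0.55. The heavy chain median rested on 1 animal: without sheep 8 it was -0.18, with 2 of the 5 higher. DNAH9 stood at 15.1, 71.6 and 24.9 CPM in sheep 2, 8 and 11 against 6.41, 13.9, 20.4 and 21 CPM (1.29, SE 0.49, edgeR adjusted p = 0.0982). Axonemal heavy chains outside the 40 genes gave further values from the same pieces: 7 of 7 tested were above 0, with a median of 0.76. No median without sheep 8 is given for these 7. DNAH6 stood at 10.1, 47.7 and 28.3 CPM in sheep 2, 8 and 11 against 11.9, 10.7, 19.6 and 26.6 CPM. DNAH1 stood at 3.33, 5.12 and 1.11 CPM against 3.15, 2.06, 5.35 and 2.14 CPM. In both, sheep 8 was the highest among the longer titles. Of the 7, DNAH2, a heavy chain of inner arms, was called higher, at 17, 17.1 and 11.1 CPM against 6.09, 3.50, 5.78 and 5.21 CPM (1.57, SE 0.35, edgeR adjusted p = 0.0121).

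**Figure D5:**
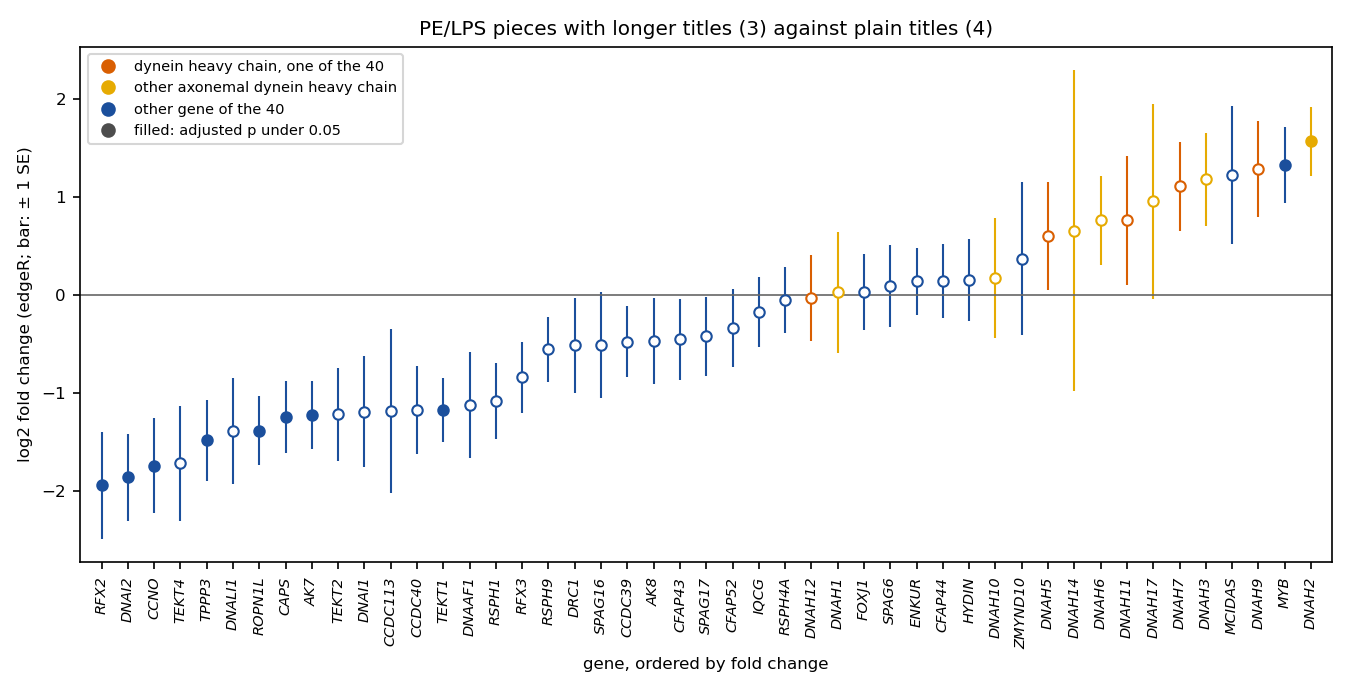
Log2 fold change (vertical axis, bars of 1 SE from edgeR) between the 3 PE/LPS pieces with longer titles and the 4 with plain titles, for the 40 cilium genes and 7 further axonemal dynein heavy chains, ordered by value; filled points have an adjusted p under 0.05. Of the heavy chains (orange and yellow) 11 of 12 lie above 0, mixed with other genes such as MYB at 1.33 and MCIDAS at 1.23, while DNAI2 lies at -1.86.

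The differences within sheep did not set heavy against intermediate chains in every animal. In sheep 8, the animal on which the heavy chain median rested, the PE/LPS piece was higher than the saline piece by 1.90 for DNAH5, 3.27 for DNAH7, 2.12 for DNAH9, 2.06 for DNAH11 and 1.68 for DNAH12 on the log2 scale. In that sheep it was lower by 1.45 for DNAI1 and 1.35 for DNAI2, and by 1.87 to 2.04 for the 3 tektins. Sheep 16, with a plain title, showed the same opposition, with the 5 heavy chains at 0.23 to 1.40, DNAI1 at -0.82 and DNAI2 at -0.70. In sheep 2, with a longer title, the heavy chains ran from -0.36 to 1.35, with DNAI1 at -1.43 and DNAI2 at -2.33. In sheep 15, with a plain title, they ran from -0.45 to 0.42, with DNAI1 at 0.59 and DNAI2 at -0.15. In sheep 11, also with a longer title, both classes were lower, the 5 heavy chains at -2.16 to -1.27, DNAI2 at -1.87 and DNAI1 at -0.12. In sheep 1, with a plain title, both were lower as well, the heavy chains at -2.36 to -1.30 and DNAI1 and DNAI2 at -1.68 and -1.32. In sheep 14, with a plain title, the heavy chains were lower by 1.5 to 3.04, while DNAI1 differed by 0.12, DNAI2 by -0.42, TEKT1 by -0.04 and TEKT4 by 0.68. Per piece, the mean deviation of the 5 heavy chains minus that of DNAI1 and DNAI2 was 1.42, 2.47 and 0.74 log2 units in the PE/LPS pieces of sheep 2, 8 and 11 and 1.00 in the control piece of sheep 9. Of the 14 plain-title pieces, the saline pieces of sheep 11 (1.34) and sheep 14 (0.63) and the PE/LPS piece of sheep 16 (0.19) were also above 0, and the other 11 lay between -1.54 and -0.07.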

How the data were processed

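The authors deposited 1 table of raw counts per gene with a column for each of 54 libraries. Counts are whole numbers that were not normalized. Per the labels' protocols the index was added at poly-A priming. Tools named in the submitters' processing notes, without roles, are STAR 2.7.10b, Trimmomatic 0.39, FastQC 0.11.9, edgeR 3.40.2, Subread 1.6.3 and featureCounts. No source used here gives the build of the genome, whether strand was used or how molecular identifiers were treated, so reads of overlapping or antisense genes cannot be told apart. Of the rows, 2 had no counts and were left out. All 40 cilium genes matched a symbol in a RefSeq table of sheep genes, which was used for names only.

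Counts of the 3 libraries of a piece were added up, and pieces, not libraries, entered each test. All genes were fitted with edgeR 4.0.16 (robust quasi-likelihood, TMM; filterByExpr, min.count 10, min.total.count 15) in R 4.3.3, with Benjamini-Hochberg adjustment at 0.05. The sheep was a block in the comparison of PE/LPS with saline, since the design text and the titles give both pieces of the same 7 animals. As a check, the deviations of PE/LPS and saline pieces of 1 sheep from their group means correlated at -0.32 to 0.42 over 13656 genes, above 0.1 in 4 of 7 sheep, with a mean of 0.058 against -0.0081 for other pairs. The difference of differences used limma 3.58.1 voom with a random block, for which the estimated correlation within sheep was -0.024, so the block changed little. DESeq2 1.42.0 and voom were alternatives. The log2 CPM values used a prior count of 2. The code of the fits was run on simulated counts with known changes and no differences between sheep. That run checks the code and gives no error rate or power for these data.

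The members and all gene lists were chosen with earlier results of these data known. Named genes are a fixed set from each role, plus the gene with the smallest p in each direction of each comparison; the heavy chains as a group, CCDC113 and DNAH2 were chosen after their values were seen. Tests compare animals, and p-values measure the spread between them. The meaning of the letter codes and of the further title characters is not given.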

Additional observations from a re-analysis of the deposited data

Results flagged for a closer look

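Dixon's test for 1 value far from the others of its group was applied to 24 named genes in each of the 3 groups (72 groups of pieces), and 5 values stood apart. The test used CPM and not log2 CPM, and all 5 values were the highest of their group. Chance flags about 1 in 20 groups only where values are normally distributed, which was not tested here. MCIDAS stood at 4.35 CPM in the PE/LPS piece of sheep 2, which was also the shallowest piece, and at 3.08 CPM in the saline piece of sheep 14, each the highest of its group. DNAH9 stood at 71.6 CPM in the PE/LPS piece of sheep 8. ZMYND10 stood at 3.92 CPM in the saline piece of sheep 11, on 99 counts. HYDIN stood at 66.1 CPM in the saline piece of sheep 14, and its fold change within sheep turned sign without that animal.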

How the results depend on the processing

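The median of the cilium genes within sheep stayed below 0 in all alternatives run, from -0.44 without the longer-title sheep to -0.79 without sheep 15, and 0 of the 40 genes were called in any of them. The count of all genes called within sheep, 0 in the reported fit, was 47 with DESeq2, 1 without a low-count filter and 0 to 1 with a sheep left out. With no replicate block for the sheep it was 1, the median was -0.54, MYB turned to 0.033, and the pairing changed no call among the 40 genes. Signs also turned for ZMYND10 with only library 2 (0.64) or 3 (0.42) of each piece, for MYB with only library 3 (0.33), and without longer titles for RFX2 (0.086), TPPP3 (0.25) and ZMYND10 (0.0028). With a sheep left out FOXJ1 ran from -0.17 to 0.046, MYB from -0.33 to 0.25, DNAH5 from -0.73 to 0.045, ZMYND10 from -0.30 to 0.032 and HYDIN from -0.48 to 0.047. The cause of these turns was not tested. Against control, SPAG16 in PE/LPS was -0.038 with LC controls only, and TEKT2 in saline -0.019 with only library 3. DESeq2 called 6 genes for saline against control. For LC against RA, the count of 0 became 94 without a filter, 51 with DESeq2, 1 with voom and 2 to 33 with a sheep left out. For longer titles the cilium genes called were 2 with library totals only and 0 to 10 with a sheep left out, and all genes called 1036 to 2958. Scaling by library totals only shifted the median of all genes to -0.13 within sheep, 0.16 for saline against control and 0.26 for LC against RA. With 7 sheep, the median SE of the 40 genes was 0.36, and estimates as low as -1.18 did not pass. Where leaving out 1 control sheep left a code with 1 piece, that piece was assumed to vary like the others. Leaving out the control sheep in the difference of differences, and the library under 1000000 counts in the comparisons by code and by title, were chosen after seeing the data. The planned promoter motif search was not run.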

Other observations

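Other cilium lists were mixed in the split of PE/LPS pieces by title. Of 116 further genes of the axonemal list 64 were lower and 52 higher with longer titles, with 9 called lower and 5 called higher by edgeR. These counts lie near the shares of all genes called, 8.9% lower and 5.16% higher. Called lower were DRC7, of the nexin link (-2.61), RIBC2 and RIBC1, inside the doublets (-2.12 and -1.66), CFAP45 (-1.99) and the docking protein ODAD1 (-1.54). Called higher were AGR3, an endoplasmic reticulum protein of ciliated airway cells (3.50), CFAP47 (1.48) and EFHB (1.47). These genes were chosen after their values were seen. Of 40 intraflagellar transport and BBSome genes 23 were higher, with a median of 0.24, and 2 were called in each direction.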
